A study of Mus musculus with 4 samples.

Results

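The mouse mitochondrial genome encodes 13 mRNAs and 2 rRNAs, and 8 of these 15 transcripts are described here in the heart: the complex III mRNA *mt-Cytb*, the 3 complex IV mRNAs *mt-Co1*, *mt-Co2* and *mt-Co3*, the 2 complex V mRNAs *mt-Atp6* and *mt-Atp8*, and the rRNAs *mt-Rnr1* and *mt-Rnr2*. They were chosen by name from the 55401 genes of the deposited table as the mitochondrially encoded transcripts other than complex I mRNAs and tRNAs. The other mt- genes of the table are the 7 complex I mRNAs, named mt-Nd, and 22 tRNA genes, all of which are listed at 0 in every library. Hearts of mice aged 8 weeks were compared, 2 wild-type and 2 heterozygous for *Ctcf* (*Ctcf* +/R567W), with each numbered replicate library taken as 1 mouse. The R567W substitution in CTCF, the chromatin insulator protein, was made by CRISPR/Cas9 genome editing in the germline, so every cell type of the heart carries it and the wild-type hearts do not. RNA was bound to mRNA capture beads in 2 rounds to deplete rRNA, and the authors deposited TPM, a relative transcript level corrected for transcript length whose total is the same in every library. Values are given below in the order wild-type 1, wild-type 2, heterozygous 1, heterozygous 2.

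Mitochondrial DNA is transcribed from each strand as long RNAs that are cut at the tRNAs between the genes into mRNAs and rRNAs. The mRNAs are polyadenylated and encode core subunits of oxidative phosphorylation: complex III passes electrons to cytochrome c, complex IV passes them to oxygen, and complex V makes ATP with the resulting proton gradient. The rRNAs form the mitochondrial ribosome that translates these mRNAs, and in the heart, which takes nearly all its ATP from oxidative phosphorylation, mitochondrial transcripts are a large part of the RNA.

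All 8 members lie on the plus strand of chrM (mm10). *mt-Rnr1* spans chrM:70-1024, *mt-Rnr2* chrM:1094-2675, *mt-Co1* chrM:5328-6872, *mt-Co2* chrM:7013-7696, *mt-Atp8* chrM:7766-7969, *mt-Atp6* chrM:7927-8607, *mt-Co3* chrM:8607-9390 and *mt-Cytb* chrM:14145-15288, each a single exon. The sequences that bear on the values are given here from the GENCODE M21 transcripts, 5′ to 3′. *mt-Atp8* and *mt-Atp6* share 43 bases in different reading frames, 21.1% of *mt-Atp8*, so a read from that stretch does not tell the genes apart. The last 60 bases of *mt-Atp8* (chrM:7910-7969) and the first 60 of *mt-Atp6* (chrM:7927-7986) follow, with the shared stretch in capitals.
mt-Atp8: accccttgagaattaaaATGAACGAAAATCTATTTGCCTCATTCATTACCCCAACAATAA
mt-Atp6: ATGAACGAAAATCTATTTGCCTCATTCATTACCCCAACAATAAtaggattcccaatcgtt

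*mt-Atp6* and *mt-Co3* meet without a tRNA between them and share 1 base, in capitals in the last 30 bases of *mt-Atp6* (chrM:8578-8607) and the first 30 of *mt-Co3* (chrM:8607-8636).
mt-Atp6 end: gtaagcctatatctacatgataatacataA
mt-Co3 start: Atgacccaccaaactcatgcatatcacata

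*mt-Co3* and *mt-Cytb* each end 1 base past their last full codon. That base, in capitals in the last 30 bases of each (chrM:9361-9390 and chrM:15259-15288), becomes a stop codon through the poly(A) tail.
mt-Co3 end: tatacgtctccatttattgatgaggatctT
mt-Cytb end: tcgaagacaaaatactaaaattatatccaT

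Of the 8 members, 4 have near-identical nuclear copies in the table (*mt-Co1*, *mt-Co2*, *mt-Co3* and *mt-Atp6*) and 4 have none. Copies were taken as nuclear transcripts that align at 95% identity or more over at least 80% of their length. There were 6 such copies, all annotated as unprocessed pseudogenes, 4 on chromosome 1 and 2 on chromosome 2. *Gm10925* (chr1:24613974-24614651) is identical to *mt-Atp6* over 678 bases, *Gm28661* (chr1:24614885-24615565) to *mt-Co2* over 681 bases and *Gm28437* (chr1:24613189-24613971) to *mt-Co3* over 783 bases, so reads inside them cannot be assigned by sequence. *Gm29216* (chr1:24615706-24616197) covers the 3′ end of *mt-Co1*, differs from it at 6 bases, all within its first 13, and is then identical over 479 bases. Its first 50 bases (chr1:24616148-24616197, minus strand) and those of *mt-Co1* at the same place (chrM:6381-6430) follow, with the differing bases in capitals.
mt-Co1: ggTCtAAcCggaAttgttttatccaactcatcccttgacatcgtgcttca
Gm29216: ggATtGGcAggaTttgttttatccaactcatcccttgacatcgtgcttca

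The 8 members together took 45.9%, 44.0%, 48.2% and 44.1% of all TPM. The genotypes overlapped in this share, the means being 45.0% ± 1.35 for the wild-type and 46.2% ± 2.89 for the heterozygous genotype (SD, n = 2 each). This share is of the genes alone and leaves out the TPM on their nuclear copies. With copies added, *mt-Co1*, *mt-Co2*, *mt-Co3* and *mt-Atp6* were each higher in both heterozygous hearts on TPM as deposited. When copies were weighted by length, *mt-Co1* overlapped and the other members with copies did not. *mt-Atp8* stood highest, between 129441 and 159872 TPM, followed by *mt-Co1* between 85128 and 108223. Because *mt-Atp8*, the shortest member at 204 bases, is translated from the same mRNA as *mt-Atp6*, its rank is one of TPM and not of separate mRNAs. The next 4, *mt-Co2*, *mt-Co3*, *mt-Cytb* and *mt-Atp6* in order of their means, had ranges over the 4 libraries that overlapped from each to the next. Both rRNAs were far lower, and *mt-Rnr2* (2835 to 5384 TPM) and *mt-Rnr1* (3070.5 to 4890.4 TPM) overlapped. With the TPM of the nuclear copies added, *mt-Co2* (105610.3 to 127072 TPM) and *mt-Co1* (103432 to 115237 TPM) exchanged places but overlapped, and *mt-Atp6* (47173 to 73054 TPM) moved above *mt-Cytb* (43979 to 49138 TPM), again with overlap.

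**Figure D1:**
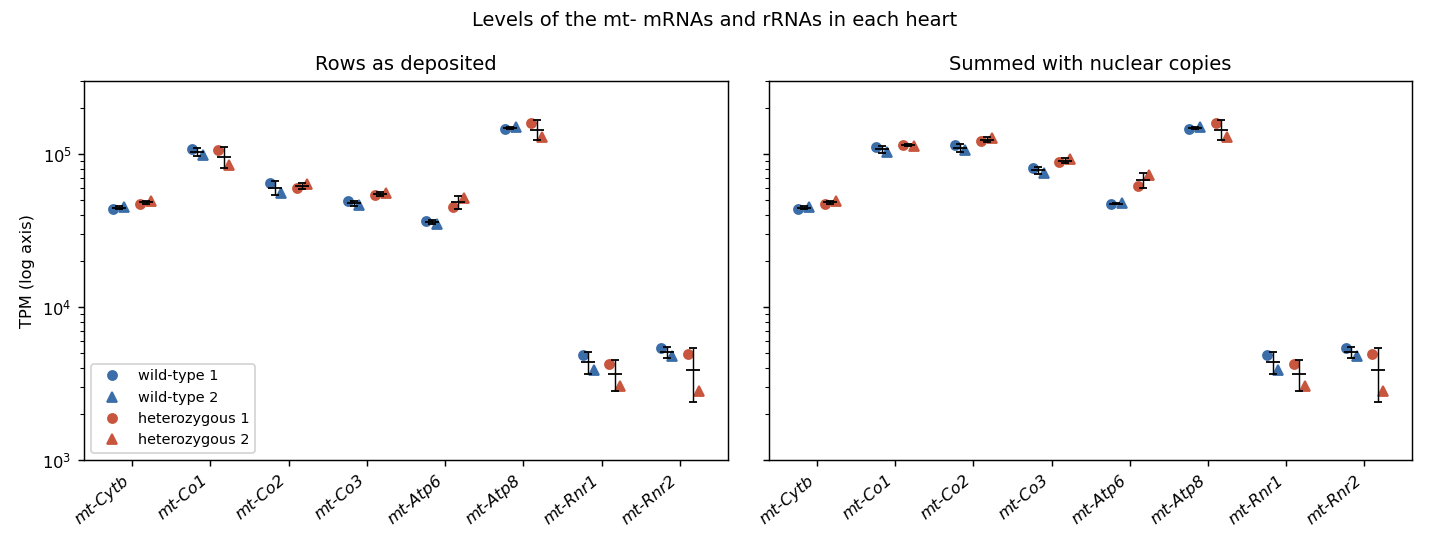
TPM of each member on a log axis in the 4 hearts, as deposited (left) and with the TPM of its nuclear copies added (right). Points are single hearts and bars are the mean ± SD of 2 hearts per genotype; *mt-Atp8* is highest and both rRNAs are lowest, at no more than 5384 TPM.

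TPM give each gene a part of a constant sum, so the genotype difference depends on what is held constant, and each member is given on 3 scales. The first is TPM as deposited. The second is scaled TPM, in which each library is divided by the median ratio of its genes to their mean over the libraries, so that the middle gene does not move. The third is TPM relative to the summed TPM of the 7 mt-Nd mRNAs of the same library, which does not depend on the scaling. Log2 fold changes, heterozygous minus wild-type, were fitted with limma on log2(scaled TPM + 1) across 10036 genes with Benjamini-Hochberg adjustment, and calls required an adjusted p under 0.05 together with more than 1.5-fold change. No member was called (0 of 8), and 0.0199% of all tested genes were. At an unadjusted p under 0.05, 3 members (*mt-Cytb*, *mt-Co3* and *mt-Atp6*) passed in limma, all with higher values in heterozygous hearts, against 12.2% of all tested genes in both directions and 6.49% in that direction. That count was 1 without wild-type 1 and 0 without wild-type 2, and 3 and 4 without heterozygous 1 and 2.

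*mt-Cytb*, cytochrome b, is the only complex III subunit made from mitochondrial DNA and binds the haems through which electrons pass. Its level was 43979 and 45222 TPM in wild-type hearts and 47459 and 49138 TPM in heterozygous hearts. The heterozygous hearts were thus the higher ones without overlap, with means of 44600.2 ± 879 and 48298 ± 1187 TPM (SD, n = 2 each). On the scaled TPM the log2 fold change was 0.56 (SE 0.21, limma adjusted p = 0.377). Relative to the mt-Nd mRNAs it was 23.4%, 26.4%, 23.3% and 26.6%, so the genotypes overlapped. *mt-Cytb* has no copy in the table, while *mt-Nd3*, *mt-Nd4* and *mt-Nd4l* of the reference have copies on chromosome 1, and with copies added its relative level was 18.9%, 20.2%, 18.6% and 21.1%, again overlapping.

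*mt-Co1*, the catalytic subunit of complex IV that holds the oxygen-reducing centre, was at 108223, 99327, 106669 and 85128 TPM. The genotypes overlapped and heterozygous 2 was lowest. The scaled log2 fold change was 0.32 (SE 0.26, limma adjusted p = 0.610), while that of the deposited TPM was -0.12. Against the mt-Nd mRNAs the gene was lower in both heterozygous hearts, at 52.4% and 46.1% against 57.6% and 58.0% (log2 difference -0.23, exact permutation test, two-sided, p = 0.33). This difference went with the copy *Gm29216*, which was at 3636 and 4088 TPM in wild-type hearts and 8551 and 28290.1 TPM in heterozygous hearts. It took 3.25% and 3.95% of the TPM of the pair in wild-type hearts, 7.42% in heterozygous 1 and 24.9% in heterozygous 2. With the copies added, *mt-Co1* was at 111879, 103432, 115237 and 113430 TPM, heterozygous hearts were above wild-type hearts, and the log2 difference relative to the mt-Nd mRNAs was -0.01 with overlapping genotypes. A TPM on the short copy stands for fewer reads than a TPM on *mt-Co1*. When each copy was weighted by its length, a choice made after the values were seen, the level was 109401, 100646, 109409 and 94148 TPM with overlapping genotypes, and the log2 difference relative to the mt-Nd mRNAs was -0.14 with both heterozygous hearts lower. The direction for *mt-Co1* therefore differed with the scale and with the treatment of its copy.

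*mt-Co2*, which carries the site where cytochrome c delivers electrons, was at 64565, 55680.4, 60054.5 and 64165 TPM. The genotypes overlapped as deposited, and after scaling both heterozygous hearts were higher, with a log2 fold change of 0.50 (SE 0.23, limma adjusted p = 0.432). As a share of the summed mt-Nd TPM it stood at 34.4%, 32.5%, 29.5% and 34.8%, and the genotypes overlapped again. The identical copy *Gm28661* held 43.9%, 47.3%, 50.3% and 49.5% of the TPM of the pair, the highest part of any copy. The sum of gene and copies was 115112, 105610.3, 120807 and 127072 TPM, higher in both heterozygous hearts, and its scaled log2 fold change was 0.61 (SE 0.21, limma adjusted p = 0.365).

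*mt-Co3*, the third core subunit of complex IV, was at 48981, 46152, 53927 and 55752 TPM. It was higher in both heterozygous hearts, with means of 47566 ± 2001 and 54840 ± 1291 TPM (SD, n = 2 each) and a scaled log2 fold change of 0.65 (SE 0.22, limma adjusted p = 0.358). Its copy *Gm28437* took a nearly constant part, 39.5%, 38.9%, 38.9% and 39.9% of the pair, and the log2 fold change of the sum was 0.66. In relation to the mt-Nd mRNAs, values of 26.1%, 26.9%, 26.5% and 30.2% overlapped between genotypes, with heterozygous 2 highest. Within complex IV, *mt-Co2* relative to *mt-Co3* was 1.42, 1.40, 1.37 and 1.37 with the copies added, a narrower range than the 1.32, 1.21, 1.11 and 1.15 of the genes alone.

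*mt-Atp6*, the subunit that forms the proton path of complex V, had the highest log2 fold change among the members. It was at 36602 and 35089 TPM in wild-type hearts and 45186 and 51947 TPM in heterozygous hearts. The genotypes did not overlap on any of the 3 scales, and the scaled log2 fold change was 0.88 (SE 0.22, 95% interval 0.36 to 1.40, limma adjusted p = 0.319). Relative to the mt-Nd mRNAs it was 19.5% and 20.5% in wild-type and 22.2% and 28.2% in heterozygous hearts, a log2 difference of 0.32 (exact permutation test, two-sided, p = 0.33; Benjamini-Hochberg over the 8 members p = 0.666). This p is the smallest that 2 against 2 hearts can give. The identical copy *Gm10925* took 22.4%, 26.2%, 27.3% and 28.9% of the pair. Gene and copy summed to 47173, 47529, 62122 and 73054 TPM, with a scaled log2 fold change of 0.95 (SE 0.20, limma adjusted p = 0.291). The difference was therefore not smaller when the copy was counted in, and heterozygous 2 was the higher of the heterozygous hearts either way. Without heterozygous 2 the log2 difference relative to the mt-Nd mRNAs was 0.15, and without heterozygous 1 it was 0.50.

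*mt-Atp8*, a small complex V subunit translated from the same mRNA as *mt-Atp6*, was at 146492, 149913, 159872 and 129441 TPM. The heterozygous hearts lay on either side of the wild-type hearts, and the scaled log2 fold change was 0.40 (SE 0.24, limma adjusted p = 0.509). The ratio of *mt-Atp8* to *mt-Atp6* was 4.002 and 4.27 in wild-type hearts and 3.54 and 2.49 in heterozygous hearts. Both heterozygous hearts had the lower ratio, with a log2 difference of -0.48 (exact permutation test, two-sided, p = 0.33; Benjamini-Hochberg over 9 ratios p = 0.428). With the copy added to *mt-Atp6* the ratio was 3.11, 3.15, 2.57 and 1.77. *mt-Atp8* is the shortest of the 15 transcripts at 204 bases, followed by *mt-Nd4l* at 297 bases, which was at 37176, 36759, 41890 and 22811 TPM. Both were highest in heterozygous 1 and lowest in heterozygous 2, whereas *mt-Nd3*, next in length at 348 bases, was highest in heterozygous 2 (37322, 34467, 38098 and 43566 TPM). The part of transcript length in the ratio was not tested.

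**Figure D2:**
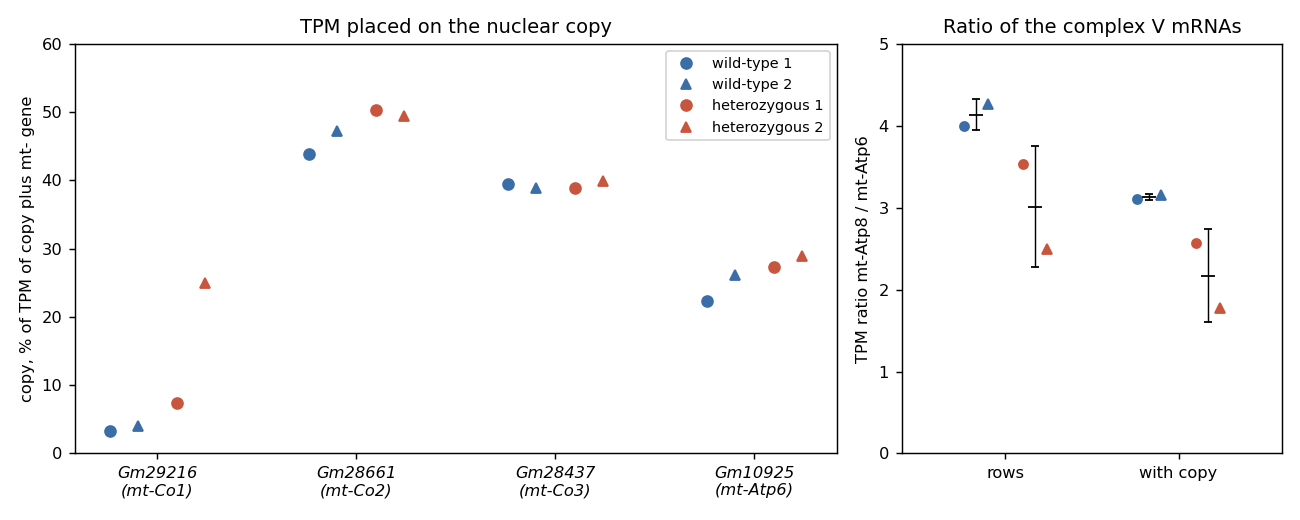
Left, percent of the TPM of each mt- gene and its chromosome 1 copy that was placed on the copy, in each heart. *Gm29216* reaches 24.9% in heterozygous 2 against 3.25% to 7.42% in the other hearts. Right, TPM ratio of *mt-Atp8* to *mt-Atp6* for the genes alone and with the copy added to *mt-Atp6* (points are hearts, bars the mean ± SD, n = 2); both heterozygous hearts lie below both wild-type hearts.

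*mt-Rnr1*, the 12S rRNA of the small ribosomal subunit, was at 4890.4, 3859.7, 4239 and 3070.5 TPM. *mt-Rnr2*, the 16S rRNA of the large subunit, was at 5384, 4789.7, 4966 and 2835 TPM. On these TPM as deposited both had the same order of libraries, wild-type 1, heterozygous 1, wild-type 2 and heterozygous 2, and the genotypes overlapped. Scaled log2 fold changes were 0.18 (SE 0.30, limma adjusted p = 0.823) and 0.01 (SE 0.34, limma adjusted p = 0.992), the lowest among the members. Both were lower relative to the mt-Nd mRNAs in both heterozygous hearts. *mt-Rnr1* stood at 2.60% and 2.25% against 2.08% and 1.66%, and *mt-Rnr2* at 2.87% and 2.80% against 2.44% and 1.54%. These log2 differences were -0.38 and -0.55 (exact permutation test, two-sided, p = 0.33 each), and without heterozygous 2 they were -0.22 each. *mt-Rnr2* relative to *mt-Rnr1* was 1.10, 1.24, 1.17 and 0.923, overlapping between genotypes.

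The RNA was selected for poly(A) tails. Nuclear RNAs without such a tail, summed over the 6 rows of *Rn7sk*, *Rn7s1*, *Rn7s2*, *Rmrp* and *Rpph1* (chosen after values were seen), were at 719, 89.7, 243 and 51.0 TPM. On TPM as deposited this sum had the same library order as both mitochondrial rRNAs, while its range between libraries was far wider. *Rn7s1* and *Rn7s2* had equal values in wild-type 2 and both heterozygous hearts (27.96, 81.16 and 18.37 TPM). In wild-type 1 they were at 173.72 and 347.44 TPM, so they may not be separate measurements, and they weigh heavily in the sum. *Rn7sk* alone (118.69, 19.79, 43.19 and 7.03 TPM) had the order of the sum. *Rpph1* (1.19, 2.74, 1.12 and 0 TPM) and 1 of the 2 rows of *Rmrp* (26.4, 0, 11.04 and 7.18 TPM) had other orders. After scaling the rRNAs had another order, both being highest in heterozygous 1. There *mt-Rnr1* was at 5185 and *mt-Rnr2* at 6074 scaled TPM, against 4495 and 4950 in wild-type 1. The part of RNA selection in the rRNA levels was not tested. The ratio of the summed 13 mt- mRNAs to the 2 rRNAs was 61.97 and 69.7 in wild-type hearts and 73.5 and 105.0 in heterozygous hearts, a log2 difference of 0.42 (exact permutation test, two-sided, p = 0.33).

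**Figure D3:**
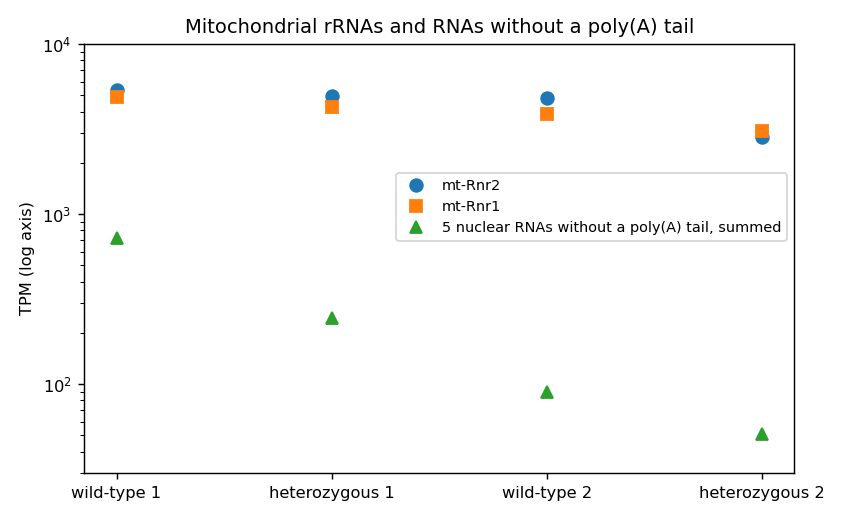
TPM as deposited (log axis) of *mt-Rnr1*, *mt-Rnr2* and the summed nuclear RNAs without a poly(A) tail in each heart. Hearts are placed in the order of the rRNA levels on this scale. All 3 are highest in wild-type 1, followed by heterozygous 1 and wild-type 2, and lowest in heterozygous 2.

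Over the 8 members the median scaled log2 fold change was 0.45, and the median of all 10036 tested genes was -0.0047. Without wild-type 2 the members' median was 0.30. All 8 had values above 0, as did 49.3% of all tested genes. After scaling, 5 members did not overlap between genotypes, all with higher values in heterozygous hearts (*mt-Cytb*, *mt-Co2*, *mt-Co3*, *mt-Atp6* and *mt-Atp8*), against 23.7% of tested genes that were higher without overlap and 47.0% without overlap in either direction. As deposited, 3 members did not overlap (*mt-Cytb*, *mt-Co3* and *mt-Atp6*, all higher in heterozygous hearts), against 2.32% of tested genes higher, 67.8% lower and 70.1% in either direction. On that scale the members had a median log2 fold change of 0.0036, with 4 above 0 and 4 below, while the median of all tested genes was -0.35. Scaling divides each library by a single factor, so it moves all abundant genes by the same amount. The order of the members is therefore the same on both scales by construction. Dividing each library by its mt-Nd mRNAs keeps that order too. The factors were 1.09 and 1.26 in wild-type hearts and 0.818 and 0.903 in heterozygous hearts. They do not overlap, so a gene with equal TPM in every heart becomes higher in heterozygous hearts without overlap after scaling. *mt-Co2* and *mt-Atp8* overlapped as deposited and did not after scaling. Above the median of all tested genes were 8 of 8 members after scaling, 7 of 8 as deposited, and 6 of 8 after quantile normalization, without heterozygous 1 or without wild-type 2.

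**Figure D4:**
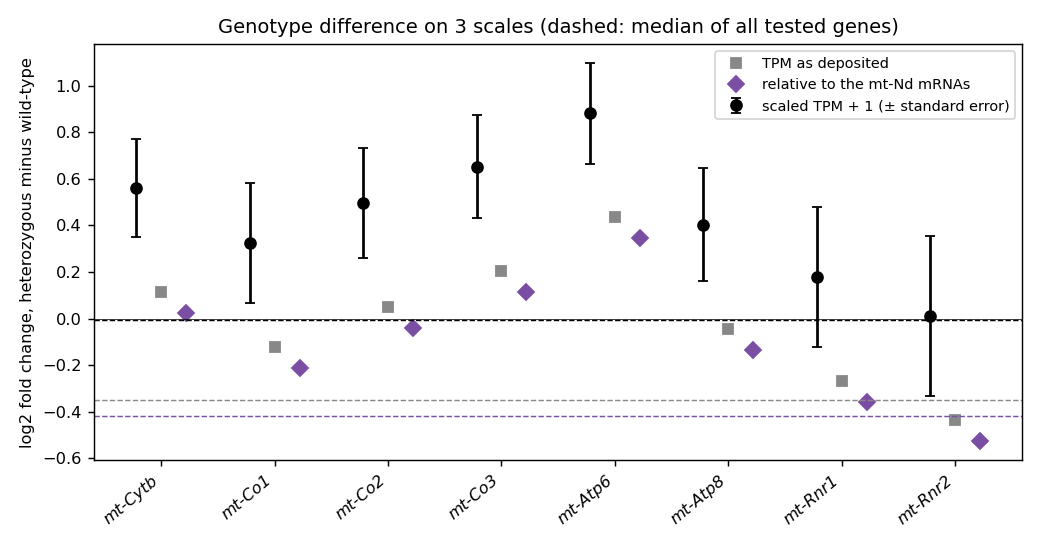
Log2 fold change of each member, heterozygous minus wild-type, on the scaled TPM (black, ± SE from limma), on TPM as deposited (grey) and relative to the mt-Nd mRNAs (violet). The violet values use the geometric mean of the mt-Nd mRNAs instead of their sum. The median of all tested genes on each scale is a dashed line of that colour. The 3 scales differ by a single factor per library, so the members have the same order on each by construction. *mt-Atp6* is highest and *mt-Rnr2* lowest, and 4 members differ in sign between the scaled and deposited values.

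The mt-Nd mRNAs, the reference for the third scale, had a median scaled log2 fold change of 0.63, above that of the members, and all 7 were above 0. Relative to their sum, *mt-Atp6* was higher and *mt-Co1*, *mt-Rnr1* and *mt-Rnr2* were lower in heterozygous hearts without overlap, and the other 4 members overlapped. Over all tested genes on this scale 1.07% were higher, 70.4% were lower and 71.4% either, all without overlap. With copies added to both sides, *mt-Co1* overlapped and *mt-Atp8* was lower without overlap (log2 difference -0.14), while *mt-Atp6* (0.41), *mt-Rnr1* (-0.36) and *mt-Rnr2* (-0.53) kept their directions. With copies weighted by length, *mt-Co1* was again lower without overlap (-0.14). No exact permutation p over 4 hearts can fall below 0.33, so none of these differences could pass a threshold of 0.05.

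**Figure D5:**
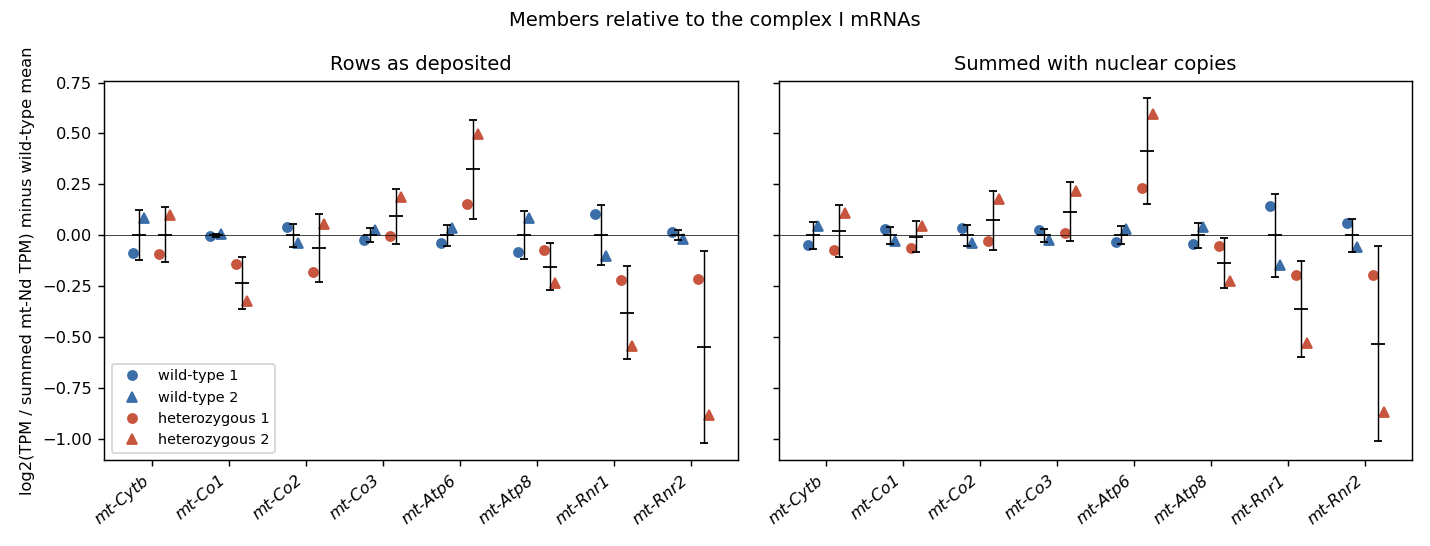
Log2 of each member's TPM over the summed mt-Nd TPM of the same heart, minus the wild-type mean, for genes as deposited (left) and with nuclear copies added (right). Points are hearts and bars the mean ± SD (n = 2). *mt-Atp6* lies above and both rRNAs below the wild-type hearts in each panel. *mt-Co1* lies below them only on the left, the copies on the right being added without weighting by length.

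The TPM of the 15 transcripts were also added by complex. Complex III took 6.80%, 7.40%, 6.92% and 7.85% and complex V 28.3%, 30.3%, 29.9% and 29.0%, both with overlapping genotypes. Complex IV took 34.3%, 32.9%, 32.2% and 32.8%, a difference of -1.13 percentage points with both heterozygous hearts lower (exact permutation test, two-sided, p = 0.33), but with the copies added its share was 39.1%, 37.4%, 37.8% and 40.5% and the genotypes overlapped. The rRNAs took 1.59%, 1.41%, 1.34% and 0.943%, a difference of -0.359 percentage points in the same direction (exact permutation test, two-sided, p = 0.33). Complex I took 29.0%, 28.02%, 29.7% and 29.5%, higher in heterozygous hearts for the genes alone and overlapping with the copies added.

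The nuclear genome encodes the remaining subunits of these complexes, and their values were mostly lower in heterozygous hearts. Of 9 nuclear complex III subunits tested 6 had a scaled log2 fold change below 0, of 15 complex IV subunits all 15, and of 17 complex V subunits 15. Their medians were -0.33, -0.25 and -0.35, and none was called by limma, while 4, 0 and 4 of them were lower at an unadjusted p under 0.05 and none was higher. Of all tested genes 50.7% were below 0 and 5.71% were lower at that p. The lowest of complex III was *Cyc1*, cytochrome c1 (-0.71, limma adjusted p = 0.335), and the highest *Uqcrb* (0.20, limma adjusted p = 0.735). In complex IV *Cox5a* was lowest (-0.42, limma adjusted p = 0.464) and *Cox4i2* highest (-0.02, limma adjusted p = 0.961). In complex V *Atp5c1*, the gamma subunit of the rotor, was at 266, 330, 149 and 172 scaled TPM, with both heterozygous hearts below both wild-type hearts (-0.88, limma adjusted p = 0.304), and *Atp5e* was highest (0.04, limma adjusted p = 0.952). On TPM as deposited the medians of these lists were -0.78, -0.70 and -0.79, where the median of all tested genes was -0.35. After quantile normalization the list medians were -0.17, -0.12 and -0.23.

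On the scaled TPM, genes that act on the mitochondrial transcripts were not of one direction. Among 31 tested genes of mitochondrial transcription and RNA maturation 16 were above 0 and 15 below, with a median of 0.02. On TPM as deposited 3 were above 0, with a median of -0.36, where the median of all tested genes was -0.35. With the geometric mean of the mt-Nd mRNAs as reference 1 was above 0, and the median of all tested genes was -0.42. After scaling none was called by limma, and at an unadjusted p under 0.05 there were 2 higher and 1 lower, against 6.49% and 5.71% of all tested genes. *Polrmt*, the mitochondrial RNA polymerase, was highest, at 12.7 and 13.01 scaled TPM in wild-type and 21.9 and 20.8 in heterozygous hearts (log2 fold change 0.69, SE 0.15, limma adjusted p = 0.290). *Hsd17b10*, a subunit of the mitochondrial RNase P that frees tRNAs from the long transcripts, was lowest (-0.63, limma adjusted p = 0.356). Of 27 tested assembly factors of complexes III to V 8 were above 0 and 19 below, with a median of -0.19 (-0.53 on TPM as deposited). None of these was called by limma, and 2 were lower at an unadjusted p under 0.05, against 5.71% of all tested genes. The lowest was *Uqcc1*, an assembly factor of complex III (-0.80, limma adjusted p = 0.271), and the highest *Cox18*, which inserts the *mt-Co2* product into the membrane (0.28, limma adjusted p = 0.557).

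Between 19916 and 20633 genes were listed above 0 per library, and *Ctcf* was at 6.66, 7.59, 6.14 and 5.20 TPM, which does not show which allele was read. All 8 cardiomyocyte markers were present in every heart. Their summed TPM was 27075 and 29458 in wild-type and 16399 and 21653 in heterozygous hearts, lower in the latter as 67.8% of tested genes were on TPM as deposited. After scaling the sums were 24889, 23383, 20059.5 and 23971 and overlapped, with a median scaled log2 fold change of -0.28 and 0 called by limma (0 at an unadjusted p under 0.05). In whole-heart RNA, fewer cells of a type and less RNA per cell cannot be told apart. Atrial markers were at 877, 2966, 1568 and 2964 TPM and erythroid markers at 657, 799, 498 and 1216 TPM, with both overlapping between genotypes also after scaling. Their median scaled log2 fold changes were 0.83 and 0.48, with 4 of 4 markers above 0 in each, 0 called and 0 at an unadjusted p under 0.05 in limma. Summed endothelial (42.0 to 71.4 TPM), fibroblast (22.3 to 65.6 TPM), macrophage (5.68 to 8.66 TPM), brown fat (4.56 to 7.35 TPM) and skeletal muscle markers (232 to 494 TPM, 2 of 4 at 0 in every heart) were lower in heterozygous hearts on TPM as deposited, as were 67.8% of tested genes. Only 1 of the 4 skeletal muscle markers averaged 1 TPM or more. Their sum is thus nearly all from 1 gene and does not by itself show skeletal muscle RNA. After scaling, endothelial and fibroblast sums were lower without overlap, as were 23.3% of tested genes, and the other 3 overlapped. Median scaled log2 fold changes of endothelial and fibroblast markers were -0.11 and -0.14, with 1 of 4 above 0 in each and 0 called. At an unadjusted p under 0.05 in limma 1 and 0 of them were lower, against 5.71% of all tested genes. The part of cell composition in the members' values was not tested.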

How the data were processed

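TPM rounded to 2 decimals were deposited by the authors, made with RSEM (1.2.28) from STAR (2.7.4a) alignments to mm10 of reads trimmed by Trim Galore (0.6.10). The annotation release, strand setting and treatment of reads with several matches are not given in the sources used here. TPM keep no depth, so no counting interval is given. Read counts were not used here. Libraries were grouped by the labels. Labels number the replicates of each genotype and give nothing on litters, sex or RNA extraction. Each library was taken as 1 mouse. The limma p values set a difference against a spread between libraries that is partly borrowed from all tested genes (4.638 prior degrees of freedom). The exact permutation p values compare a difference with those of the other groupings of the 4 libraries.

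Median-of-ratios factors, by which the libraries were divided, came from genes above 0 throughout and averaging 1 TPM or more. A pseudocount of 1 was added and log2 taken, so fold changes of low genes are understated. All 10036 genes averaging 1 TPM or more entered limma (3.58.1, lmFit and eBayes with trend, two-sided) in R (4.3.3). All adjusted p values of genes are from limma. Ratios and shares within a library were compared by exact permutation tests over 4 libraries. Copies were found with BLAST+ (2.17.0), and positions come from GENCODE M21, to which 55141 identifiers matched without version. Tables were made with Python (3.11.15). The script was tested on simulated data.

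Named genes are the 8 members, the mt-Nd mRNAs, copies averaging 1 TPM or more, the tested gene with the highest and lowest fold change in each of the 5 nuclear mitochondrial lists, and the nearest profile of each member. *Ctcf* and the RNAs without a poly(A) tail stand outside this rule. The members and lists were chosen with earlier results of these data known. Alternatives were other pseudocounts and filters, deposited or quantile-normalized TPM, the mt-Nd mRNAs as reference, other eBayes settings and thresholds, other copy limits, a replicate block, and each library left out.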

Additional observations from a re-analysis of the deposited data

How the results depend on the processing

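The median log2 fold change of the members, 0.45 after scaling, was 0.0036 on TPM as deposited. It was 0.0 after quantile normalization, which gives the highest-ranked genes shared values by construction. With the mt-Nd mRNAs as reference, here their geometric mean instead of their sum, it was -0.087. The scaled median ran from 0.30 to 0.58 when each library was left out in turn. The count of members called by limma was 0 in every setting run at adjusted p, and 3 at an unadjusted p under 0.05. That count of 3 was 0 on TPM as deposited, after quantile normalization, with the mt-Nd reference and with no filter on low values, and 5 with copies added. On TPM as deposited the sign turned for *mt-Co1* (-0.12), *mt-Atp8* (-0.043), *mt-Rnr1* (-0.27) and *mt-Rnr2* (-0.44). With copies added *mt-Co1* was above 0 on that scale (0.088), but its length-weighted sum had a lower mean in heterozygous hearts (101779 against 105024 TPM). Quantile normalization turned *mt-Co2* (-0.070) and *mt-Rnr2* (-0.26). The mt-Nd reference turned *mt-Co1* (-0.21), *mt-Co2* (-0.040), *mt-Atp8* (-0.13), *mt-Rnr1* (-0.36) and *mt-Rnr2* (-0.53). Leaving out libraries took *mt-Rnr1* from -0.12 to 0.48 and *mt-Rnr2* from -0.46 to 0.49, the low ends without heterozygous 1 and both turning without wild-type 2 as well. The other 6 members kept their sign, but *mt-Co1* ran from 0.09 to 0.56, *mt-Co2* from 0.28 to 0.70 and *mt-Atp8* from 0.18 to 0.63.

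Relative to the mt-Nd mRNAs, leaving out libraries moved *mt-Cytb* between -0.093 and 0.0995, *mt-Co2* between -0.18 and 0.057 and *mt-Co3* between -0.0013 and 0.19, and *mt-Co2* was 0.0736 with copies added, also by length (0.0733). With copies added the share differences turned to -0.485 percentage points for complex I, -0.0159 for complex III, 0.870 for complex IV and -0.0437 for complex V. With length-weighted copies, chosen after seeing the data, they were -0.143 for complex I and 0.154 for complex IV. For complex III (0.0553) and complex V (0.252) the length-weighted differences kept the sign they had for the genes alone. Leaving out libraries moved complex III between -0.180 and 0.753 and complex V between -0.829 and 1.14, while complex IV ran from -1.82 to -0.446 (without wild-type 2 and 1) and the rRNAs from -0.558 to -0.160 (without heterozygous 1 and 2). The causes were not tested.

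Replicate numbers were shared by different mice, and same-numbered deviations correlated at 0.101 across genes. With the replicate number as a block the members' median was again 0.45 and none was called, with 1 member at an unadjusted p under 0.05 and a smallest limma adjusted p of 0.269. With 2 hearts per genotype and no read depth, a member that was not called is not shown to be unchanged.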

Other observations

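Of the mt- genes, the profile nearest to each member over the 4 libraries was measured as the root mean square distance of centred log2 scaled values. *mt-Co3* lay nearest to *mt-Nd2* (0.0269), *mt-Co1* to *mt-Nd5* (0.0418), *mt-Atp8* to *mt-Nd5* (0.0604), *mt-Cytb* to *mt-Nd4* (0.061) and *mt-Co2* to *mt-Nd6* (0.0627), the last of which is encoded on the other strand. The distances of *mt-Rnr2* to *mt-Nd4l* (0.107), *mt-Atp6* to *mt-Nd2* (0.111) and *mt-Rnr1* to *mt-Co1* (0.117) were wider. Among nuclear genes without mitochondrial similarity the nearest were *Pgm2* to *mt-Cytb* (0.0301), *Atg2a* to *mt-Co1* (0.0259), *Trmt13* to *mt-Co2* (0.027), *5031434O11Rik* to *mt-Co3* (0.0193), *Tcirg1* to *mt-Atp6* (0.0341), *Acsl3* to *mt-Atp8* (0.00539), *Pld1* to *mt-Rnr1* (0.0211) and *Rbm28* to *mt-Rnr2* (0.0669). With 4 libraries and 10036 genes, small distances to some nuclear gene arise readily, and they are given as values.

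The copies on chromosome 2 were at much lower levels than those on chromosome 1. *Gm13340*, which aligns along all of *mt-Co1*, was at 20.0, 17.2, 16.4 and 11.2 TPM, and *Gm13341*, which aligns along *mt-Co2*, at 7.39, 3.69, 5.60 and 4.68 TPM.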
